A study of Drosophila melanogaster with 3 samples.

Results

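The proneural and sensory organ regulators are 10 Drosophila melanogaster genes, ac, sc, l(1)sc, ase, ato, amos, cato, sens, ct and pros, out of 13945 protein-coding genes on the 6 major chromosome arms. They were taken by gene name from the Ensembl annotation, and a peak was given to a gene when its summit lay in the gene span or 5 kb around it. All 3 samples were biological replicates of 1 group: whole embryos of the transgenic strain B-H1-GFP, which carries an eGFP-tagged B-H1, collected at 8 to 24 h and subjected to chromatin immunoprecipitation with an antibody against GFP. The labels describe no second condition, so nothing was compared between conditions. The peak lists of the 3 replicates (2062, 3609 and 2230 thresholded peaks in replicates 1, 2 and 3) came with longer ranked lists of 104625, 98054 and 74130 peaks and with 1 conservative list of 3078 peaks for the series. Read totals were not analysed here, so the depth behind the lists is unknown, and a whole embryo mixes the cells that make sense organs with all others. A control experiment is named in the labels and was not analysed here, and a separate age label that disagrees with the embryo collection was not used.

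On dm6, the achaete-scute genes lie clustered, but not all adjacent, on the plus strand of the X chromosome. Here ac is at chrX:370031-370947, sc at chrX:396060-397497, l(1)sc at chrX:409721-410817 and ase at chrX:460747-463176. The ato family is scattered, with ato at chr3R:8278052-8279274 on the plus strand, amos at chr2L:18596136-18596921 on the minus strand and cato at chr2R:16277685-16278396 on the minus strand. The gene sens is at chr3L:13396228-13401125 on the minus strand, ct at chrX:7608428-7678859 on the plus strand and pros at chr3R:11328480-11407627 on the plus strand. The annotation gives ct 3 transcription starts, pros 4 and each of the others 1.

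Proneural genes encode basic helix-loop-helix proteins that give groups of ectodermal cells the competence to become neural precursors. The proteins act as dimers with Daughterless and bind E boxes, and Notch signalling limits their activity to single precursors. The B-H1 and B-H2 homeodomain proteins are known in flies as prepattern factors for achaete and scute on the notum and as identity factors of cells within external sense organs. The genes ac, sc, l(1)sc and ase form the achaete-scute complex; ac and sc drive external sense organs, l(1)sc promotes central neuroblasts, and ase is expressed in neural precursors. The related genes ato and amos direct chordotonal organs with photoreceptors and olfactory sensilla, and cato is expressed in developing sensory neurons. The gene sens encodes a zinc finger protein that reinforces proneural activity, ct encodes a homeodomain protein that selects external sense organ identity, and pros encodes a homeodomain protein partitioned into daughters of neural precursors.

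Sequences at some of the peaks are shown first. The first of them held the only region at these genes with a thresholded peak in all 3 replicates. The other sequences held ranked sites in or near ct, pros and sens. The ct sites at chrX:7618296-7618495 and chrX:7651720-7651919 were also thresholded peaks, the first in replicate 2 alone and the second in replicate 1 alone. All sequences are from genome Release 6 (dm6), plus strand. Capitals mark matches, on both strands, to the homeodomain core TAATTA, the Bar homeodomain motif TAAACG, the other Bar homeodomain motif TAATTG, or the E box CANNTG. Windows were 200 bp around the summit, and the first was shortened to leave out the untranslated exons on either side.
mgr to Irbp, downstream of pros, chr3R:11409876-11410046: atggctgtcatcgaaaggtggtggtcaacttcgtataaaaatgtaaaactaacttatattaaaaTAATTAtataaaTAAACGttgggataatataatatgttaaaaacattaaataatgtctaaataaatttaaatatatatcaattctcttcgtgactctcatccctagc
ct intron, chrX:7618296-7618495: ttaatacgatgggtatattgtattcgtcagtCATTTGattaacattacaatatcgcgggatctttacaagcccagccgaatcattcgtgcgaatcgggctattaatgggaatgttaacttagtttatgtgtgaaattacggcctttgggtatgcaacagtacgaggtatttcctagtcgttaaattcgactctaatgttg
ct intron, chrX:7616992-7617191: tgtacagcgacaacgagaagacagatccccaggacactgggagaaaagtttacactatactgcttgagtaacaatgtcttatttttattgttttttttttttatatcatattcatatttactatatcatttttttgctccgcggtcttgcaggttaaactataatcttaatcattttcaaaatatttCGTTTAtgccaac
ct intron, chrX:7651720-7651919: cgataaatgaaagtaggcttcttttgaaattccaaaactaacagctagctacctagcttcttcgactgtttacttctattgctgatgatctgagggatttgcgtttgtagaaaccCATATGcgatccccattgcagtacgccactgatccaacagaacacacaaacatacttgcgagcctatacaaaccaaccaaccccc
pros intron, chr3R:11338390-11338589: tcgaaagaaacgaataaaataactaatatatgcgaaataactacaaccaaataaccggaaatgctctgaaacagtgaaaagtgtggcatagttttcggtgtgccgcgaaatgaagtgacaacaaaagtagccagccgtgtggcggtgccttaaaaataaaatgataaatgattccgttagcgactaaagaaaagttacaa
upstream of sens, chr3L:13403005-13403204: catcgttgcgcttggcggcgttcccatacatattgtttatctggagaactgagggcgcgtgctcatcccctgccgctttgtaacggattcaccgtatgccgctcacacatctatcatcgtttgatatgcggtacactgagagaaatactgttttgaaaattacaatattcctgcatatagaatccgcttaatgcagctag
The first sequence held TAATTA and TAAACG close together, and no E box. The ct sites shown held 1 E box, 1 TAAACG and 1 E box in the order listed. The pros intron and sens sites shown held none of these motifs. Other ranked ct sites, not shown, at chrX:7657512-7657711 and chrX:7666742-7666941, held 3 and 2 E boxes. Of the pros sites not shown, that in coding sequence at chr3R:11373097-11373296 held none, and that with its summit at chr3R:11353084 held TAATTA and an E box.

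Only pros had a peak of all 3 thresholded lists in its window, which is 1 of the 10 genes, whereas 20.7% of the protein-coding genes had one. In replicate 1, 2 of the 10 genes (ct and pros) had a thresholded peak, against 27.0% of protein-coding genes. In replicate 2 the same 2 genes had one, against 38.9%, and in replicate 3 only pros had one, against 29.2%. The conservative list again gave ct and pros, 2 of 10, against 35.5%. None of the 10 had a summit within 1 kb of its own transcription start in any thresholded list or in the conservative list, against 10.7%, 16.5% and 11.8% of protein-coding genes in replicates 1, 2 and 3, 7.90% in all 3 replicates and 14.4% in the conservative list. With 10 genes, 1 gene is worth 10% of the set, and no test was made.

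**Figure D1:**
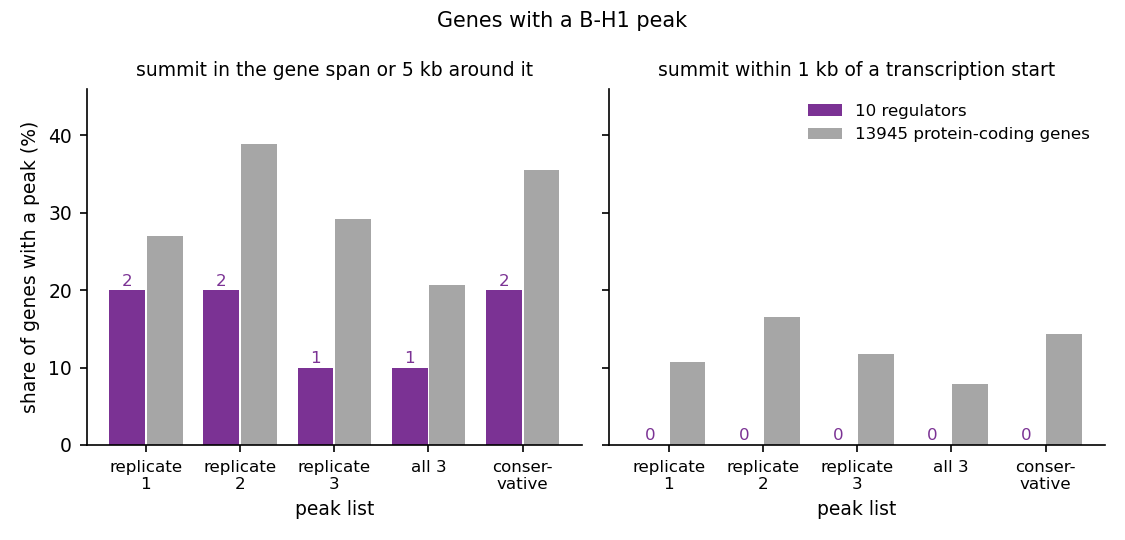
Share of genes (%) with a summit in the gene span or 5 kb around it (left) and within 1 kb of a transcription start (right), by peak list, for the 10 regulators (purple, number of genes above the bar) and for 13945 protein-coding genes (grey). The regulators' share lies below that of the protein-coding genes in every list.

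Gene length sets how much sequence a window takes in, and 8 of the 10 genes span at most 5 kb while ct and pros span 70.4 and 79.1 kb. Among the 10463 protein-coding genes of at most 5 kb, 17.9% had a region of all 3 replicates in the window and 31.3% had a conservative peak, against 0 of the 8 short regulators on either count. Among the 307 genes of at least 50 kb, 42.0% had a region of all 3 replicates and 60.6% a conservative peak, and the 2 long regulators counted 1 and 2. Over the 263 kb of all windows the density of such regions was 0.380 per 100 kb, against 1.03 per 100 kb over the arms. Thresholded peaks stood at 0.634 ± 0.219 per 100 kb in the windows and 1.94 ± 0.66 per 100 kb over the arms (SD, n = 3 replicates), and in each replicate the windows were below the arms. Conservative peaks stood at 1.52 per 100 kb in the windows and 2.30 per 100 kb over the arms.

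The pros region was the strongest at any of the 10 genes, but it lies at the promoters of other genes. It spans chr3R:11409789-11410097, is intergenic, and has its summit 2321 bp beyond the end of pros and 37160 bp from the nearest pros transcription start. The summit is 73 bp upstream of mgr, which encodes a prefoldin subunit, and 99 bp upstream of the oppositely oriented Irbp, which encodes a Ku protein of DNA repair. Its peak signal had a percentile of 86.1, 88.7 and 80.7 within the thresholded lists of replicates 1, 2 and 3, a mean of 85.1 ± 4.1 (SD, n = 3), and it ranked 288, 409 and 432. The replicates were close together, and all stood in the upper part of their lists. In the conservative list the peak was at percentile 89.4. In the 200 bp window around the summit the GC content was 26.5%, with 7.85% of the 1375 regions of all 3 replicates lower. The pair TAATTA and TAAACG was found in 22 of those 1375 regions, 1.60%.

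Inside pros, weaker ranked peaks were found, and none was in a thresholded or conservative list. Of 12 ranked regions shared by all 3 replicates in its window, 11 lay within the gene. The summit of replicate 1 in 1 of these regions was 409 bp past a pros transcription start, in coding sequence. This region had ranked percentiles of 93.6, 83.1 and 83.2 in replicates 1, 2 and 3. Its replicate 2 summit was 44.294 kb from the gene start, just before that transcription start at 44.308 kb. An intronic site 3510 bp past a start had 68.4, 94.7 and 93.7, so replicate 1 was the low one. A region with its replicate 2 summit 18104 bp from the nearest pros start had 68.2, 94.8 and 81.0. That summit lies in a 5' UTR, within the spans of the nested kinase genes KP78a and KP78b and 47 bp from the start of KP78a. The summits of replicates 1 and 3 lay elsewhere in the region, at chr3R:11352478 and chr3R:11352541. The region beyond pros had 99.7, 99.6 and 99.4 in the same lists, above all of these in each replicate.

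At ct the thresholded lists disagreed. Replicate 2 had an intronic peak 9248 bp past the nearest ct start, at percentile 73.8 of its thresholded list (signal 99.5, rank 945). Replicate 1 had a different intronic peak, 19598 bp past the nearest start, at percentile 8.75 (signal 38.9, rank 1882), and replicate 3 had none. The ranked lists held both places in all replicates. The first was at ranked percentile 95.9, 99.0 and 97.6 in replicates 1, 2 and 3, with a −log10 global IDR of 0.0587, 3.89 and 1.39. All 3 replicates ranked it at percentile 95.9 or higher, while only replicate 2 passed the threshold, which starts at 2.00. The second was at 97.9, 94.5 and 38.5, and replicate 3 stood far below the others. A neighbouring intronic site 7944 bp past the nearest start was at 93.6, 97.5 and 94.2. All 3 conservative peaks at ct fell at this neighbour and at or beside the first place, with percentiles of 16.7, 54.1 and 0.828 within the conservative list.

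**Figure D2:**
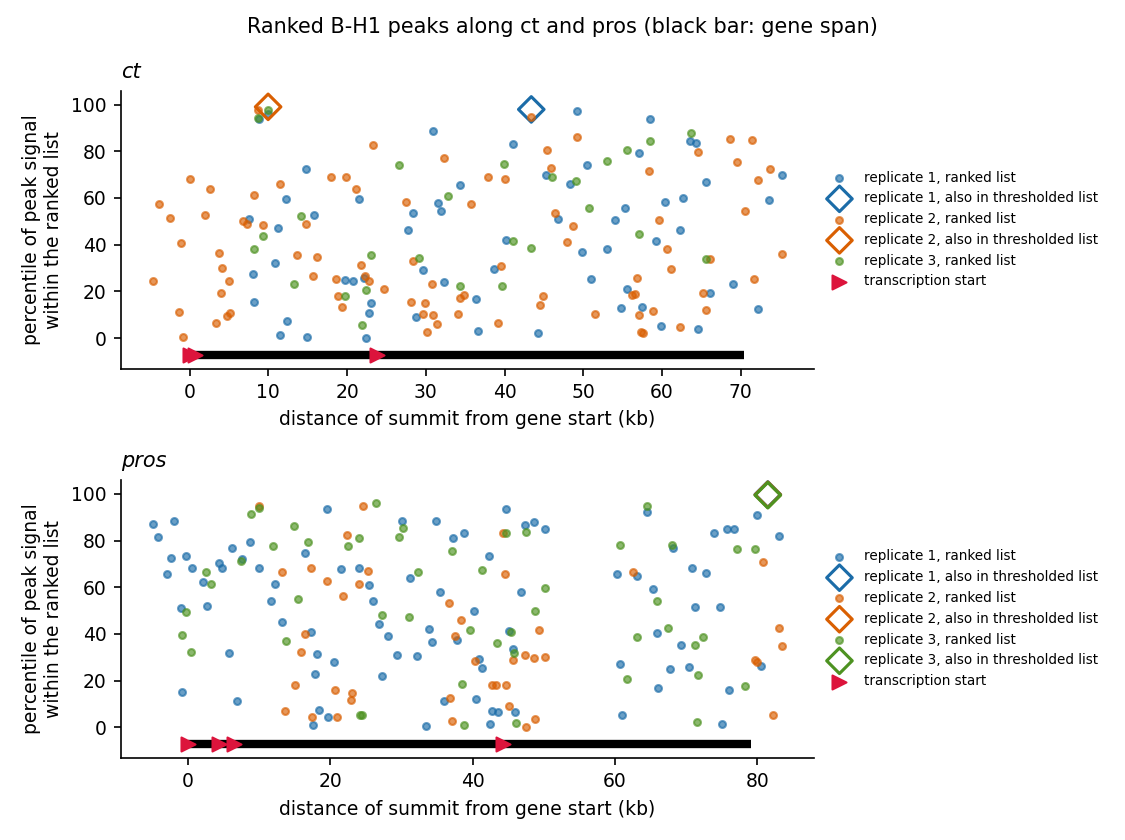
Percentile of peak signal within each ranked list (y axis) against the distance of the summit from the gene start in kb (x axis), for ct (top) and pros (bottom); diamonds mark peaks also in a thresholded list, arrowheads transcription starts and the black bar the gene span. The diamonds of all 3 replicates coincide beyond the end of pros, and the diamonds at ct are at different places in replicates 1 and 2.

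No thresholded peak of any replicate and no conservative peak fell in the achaete-scute complex. The interval from 5 kb before ac to 5 kb after ase, chrX:365031-468176, covers 103 kb, for which the arm mean gives 3.15 merged thresholded regions and 1.06 regions of all 3 replicates. Of 1296 tiles of that length along the arms, 23.8% also held no thresholded peak. Ranked peaks numbered 69, 30 and 41 in replicates 1, 2 and 3, where the arm mean gives 78.2, 75.5 and 56.2. Ranked regions shared by all 3 replicates numbered 6, where the arm mean gives 16.3, and all lie inside the long gene CG32816. Of these, 5 lie in introns and 1 in coding sequence, 281 bp past the start of Pgcl, whose span also covers it. Which of the 2 genes that coding sequence belongs to was not examined.

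Among the genes of the complex, ac had the highest ranked percentiles, 95.7, 92.6 and 93.1 in replicates 1, 2 and 3, but at 3 different places, 4087 bp past, 4302 bp before and 1955 bp before its start. The gene sc had 13, 0 and 2 ranked peaks, with highest percentiles of 74.3 in replicate 1 and 63.6 in replicate 3. The gene l(1)sc had 3, 0 and 1, with 81.3 and 72.5 in replicates 1 and 3. Replicate 2 listed no peak at either gene. The highest percentiles at ase were 86.4, 83.1 and 76.1, again at separate places. No ranked region shared by all replicates was found at sc, l(1)sc or ase, and ac had 1, at percentiles of 20.0, 7.16 and 56.5.

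The ato family likewise had no thresholded peak. At ato the highest ranked percentiles were 94.9, 45.3 and 64.1 in replicates 1, 2 and 3, with no region shared by all 3. At amos they were 89.9, 84.2 and 90.1, and the 1 shared region was at 89.9, 76.1 and 33.6. Its replicate 1 summit was in the amos coding sequence, and its replicate 3 summit, chr2L:18596963, lay outside amos. At cato the highest percentiles were 90.3, 76.9 and 54.1, with 6 shared regions in its window, 5 in neighbouring genes and 1 in cato. At sens they were 96.9, 82.8 and 78.0, and the 1 shared region, 1980 bp upstream of its start, was at 96.9, 82.8 and 73.4. Replicate 1 gave the highest value at all of the 10 genes except amos and ct, and the cause was not tested.

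For the 8 short genes the median of the highest ranked percentile was 90.1, 82.9 and 74.3 in replicates 1, 2 and 3, over the genes with a ranked peak, against 94.1, 94.7 and 91.7 for all genes of at most 5 kb. A ranked region of all 3 replicates was found at 4 of the 8, against 71.3% of the short genes. For ct and pros the medians were 98.8, 99.3 and 98.5, against 98.2, 98.4 and 97.5 for genes of at least 50 kb. In all windows the ranked lists held 67.7 ± 20.5 peaks per 100 kb, against 67.8 ± 11.6 over the arms (SD, n = 3 replicates), a difference smaller than the spread between replicates. The direction differed between replicates: the windows were above the arms in replicate 1 (87.8 against 75.8 per 100 kb) and below them in replicate 2 (68.4 against 73.2) and replicate 3 (46.8 against 54.5). Ranked regions shared by all replicates stood at 12.9 per 100 kb in the windows and 15.8 over the arms, and 3 of 34 (8.82%) in the windows were at or above percentile 90 in each replicate, against 2791 of 21189 (13.2%). Of the 34, 17 lay in introns and 12 in coding sequence, by the summit of the replicate with the highest percentile. Some of that coding sequence belongs to neighbours of cato, and ct and pros held 13 and 12 of the 34. The same split over the 21189 regions was not counted, so these numbers have no background.

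**Figure D3:**
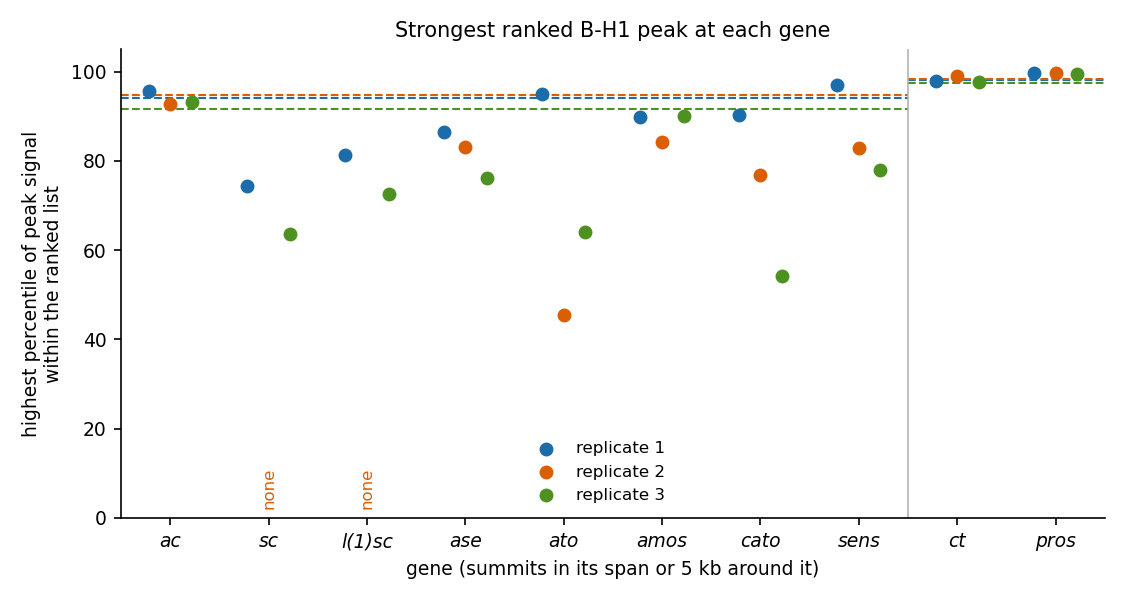
Highest percentile of peak signal within each replicate's ranked list (y axis) among peaks in the span of a gene or 5 kb around it, for the 10 regulators (x axis); points are replicates, dashed lines the median over protein-coding genes of at most 5 kb (left of the vertical line) and of at least 50 kb (right). The points of ct and pros lie between 97.6 and 99.7, and sc and l(1)sc have no ranked peak in replicate 2.

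The nearest region with a thresholded peak of all 3 replicates lay at a median of 53.3 kb from the 10 genes, against 24.9 kb for all protein-coding genes, and 6 of the 10 were farther away than 24.9 kb. For ac, sc, l(1)sc and ase it was the same region, 484 bp upstream of CG17896, at 123, 96.5, 83.2 and 30.8 kb, so these 4 distances are not independent. It was 76.5 kb away for ato, next to stck, and 75.8 kb for sens, next to stv, which encodes a co-chaperone. It was 15.9 kb away for cato, at the promoter of the autophagy gene Atg9, and 12.8 kb for ct, next to the forkhead gene CHES-1-like. The gene just inside the 5 kb limit was pros, at 2.32 kb, and the gene just outside was amos, at 8.21 kb, whose region lay 108 bp upstream of CG10413. No region of all 3 replicates had a transcription start of any of the 10 genes as its nearest.

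**Figure D4:**
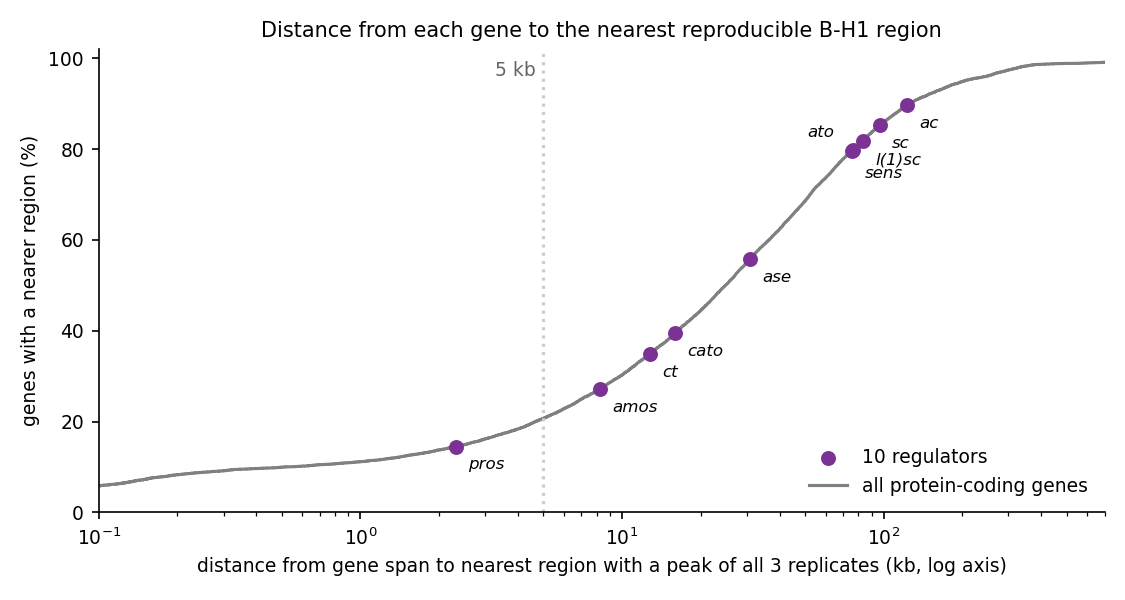
Share of protein-coding genes with a nearer region (%, y axis) against the distance from the gene span to the nearest region with a peak of all 3 replicates (kb, log x axis), for the 10 regulators (purple) and all protein-coding genes (grey line). The regulators run from 2.32 kb at pros to 123 kb at ac.

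Of 36 genes upstream or downstream of the regulators, 5 (13.9%) had a region of all 3 replicates in the window and 1 (2.78%) within 1 kb of a start, against the 20.7% and 7.90% of all protein-coding genes given above. The 36 genes had a median span of 15.3 kb, against 2166 bp for all protein-coding genes. Their windows thus take in more sequence, and the window shares here are not matched for gene length. Of 13 prepattern and upstream factors 4 had one and 0 within 1 kb. They were ush, a cofactor of the GATA factor Pannier, with its strongest 1342 bp upstream of a start; the LIM homeodomain gene tup, at the start of CG10602; sr, which encodes an Egr-type zinc finger protein, 3184 bp past a start; and da, the partner gene of the proneural proteins, at the start of mRpS7. The mean percentiles in the thresholded lists were 69.6 ± 13.9, 79.4 ± 3.7, 77.1 ± 11.4 and 43.1 ± 27.7 in that order (SD, n = 3). Of 10 precursor genes, chn alone had one, with 4 regions, and its strongest lay 109 bp upstream of a start at 92.0 ± 1.9. None of the 7 sense organ subtype genes and none of the 6 eye specification genes upstream of ato had one. In the conservative list 13 of the 36 had a peak in the window, against 35.5%.

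Motifs were counted in 200 bp around the summits of 10 sites at these genes, the 3 thresholded ones and the ranked regions of all 3 replicates with a mean percentile of at least 80. Of the 10, only the region beyond pros is among the 1375 regions with a thresholded peak of all 3 replicates, so each share is given for those and then for the 21189 ranked regions of all 3 replicates, whose mean GC content was 34.2% and 44.4% in that order. E boxes CANNTG were in 5 of the 10 sites, against 57.4% and 66.4%, and the E box CAGCTG in 0, against 7.27% and 10.8%. Of the homeodomain motifs, TAATTA was in 2, against 19.2% and 11.5%. TAAACG was in 2, against 8.07% and 6.81%, and TAATTG in 0, against 19.8% and 16.0%. The Senseless core AAATCA was in 0, against 25.8% and 18.8%. TATCGA of the factor DREF was in 2, against 10.3% and 6.72%, and GAGAGA of GAGA factor was in 1, against 10.1% and 7.55%. A match is a description of letters only, and the sites were chosen after their values were seen.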

How the data were processed

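Chromatin immunoprecipitation peaks of 3 biological replicates were used as deposited, on dm6 per the labels. Which aligner and peak caller made them was not given in the sources used here. Column 7, the authors' peak signal, was used as a percentile within its own list. Column 5, the deposited score, was used as an alternative ranking. The deposited −log10 global IDR (irreproducible discovery rate, a measure of rank consistency) starts at 2.00 in the thresholded lists. The conservative list came from the alignments of all 3 replicates, per the deposited notes. Ranked lists deposited for the series rather than for 1 sample were not used, nor were the 32 columns of per-sample values in them. Gene models were Ensembl release 115, and the genome was NCBI Release 6. Thresholded peaks of the replicates that overlapped by at least 1 bp were merged. Ranked peaks were merged across replicates in the same way. A merged region took its summit, and so its distances and feature class, from the replicate with the highest percentile. Transcription start distances use the nearest start of the gene itself unless another gene is named. Counts are descriptive and no test was made, since there is 1 group. Code was tested on simulated peaks, in Python 3.11.15 with pandas 2.3.3 and NumPy 2.4.6. The genes, lists and motifs were chosen with earlier results of these data known. Genes outside the set were named where they had the nearest start to a peak in a window, or were list members with a region of all 3 replicates, up to 4 per list by mean percentile. The backgrounds by gene length, the ranked regions shared by replicates and the whole achaete-scute interval were added after seeing the data.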

Additional observations from a re-analysis of the deposited data

How the results depend on the processing

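Of 50 alternative values, 37 moved by less than the spread between replicates or, for counts, stayed near the reported count, and 13 moved further. The number of genes with a region of all 3 replicates, 1 as reported, was 0 with the gene span alone, 0 with 2 kb around it, 2 with 10 kb around it, 0 by nearest transcription start at any distance and 2 with the conservative list; 4.78%, 13.8% and 30.2% of protein-coding genes had one with the span alone, 2 kb and 10 kb. The regions in the windows, 1 as reported, numbered 0, 0, 2 and 4 with the span alone, 2 kb, 10 kb and the conservative list. The percentile of thresholded peaks at the 10 genes, a mean of 69.8 ± 19.4 (SD, n = 3) over replicate medians of 47.4, 81.3 and 80.7, was 50.6 when ranked by the score in column 5, a move just under that SD. Those medians rest on only 2, 2 and 1 peaks in replicates 1, 2 and 3, and the region beyond pros is 1 peak in each. The percentile was 41.3 with the span alone or 2 kb. The region beyond pros then drops out, which leaves 1 ct peak in replicate 1 (8.75) and 1 in replicate 2 (73.8). When 1 replicate was left out, the percentile was between 64.0 and 81.0. Of the 8 motifs, the region beyond pros held 4 in 400 bp and 2 in the reported 200 bp. Ranked peaks in the windows numbered 29.8 ± 9.8 per 100 kb when lists were cut at their median signal, by construction fewer, against 34.0 ± 5.9 over the arms (SD, n = 3), and 57.6 to 78.1 per 100 kb when 1 replicate was left out. The number of the 10 genes with a region near a start, 0 as reported, was 0 under each of 10 alternative runs. These runs used limits of 500 bp or 2 kb, or kept 1 kb and changed the list, cutoff, overlap or replicates required. Between 5.10% and 14.4% of protein-coding genes had such a region in the same runs. With only 10 genes, a count of 0 cannot be told apart from shares this small. No paired analysis was possible because there is 1 group. Depth is unknown, and a gene without a listed peak is not shown to lack binding.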
